A study of Drosophila melanogaster with 72 samples.

Results

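Knockdown of Trithorax (Trx) in the photoreceptors of Drosophila melanogaster was compared with a control knockdown of mCherry, a fluorescent protein that flies do not have, and the difference was averaged over the day. The comparison used every library of both genotypes, 18 with Trx RNAi and 18 with mCherry RNAi, which are 36 of the 72 libraries of the study. Each genotype was sampled at ZT0, ZT4, ZT8, ZT12, ZT16 and ZT20, where ZT0 is lights on in a 12 h:12 h light:dark cycle, with 3 samples at each time point. Genes were the features with an FBgn (FlyBase gene) identifier, of which 11685 of 17895 had at least 1 CPM (read counts scaled to a common library size) in all 3 replicates of at least 1 genotype and time point and were tested. All flies were 10-day-old males, 400 per sample, raised at 25 °C. All were progeny of Rh1-Gal4 flies that also carry UAS-GFP-Msp300KASH, a green tag on the nuclear envelope, so the Gal4 driver, the tag and an RNAi construct inserted at attP2 are shared by both groups. The control carried UAS-mCherry-RNAi in a yv stock and the Trx group the hairpin TRiP.HMS00580 in a y1 v1 stock. Each genotype was 1 RNAi line, and no second hairpin against trx was used here.

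Trx is a histone methyltransferase of the COMPASS family, the fly counterpart of mammalian MLL1 and MLL2, and methylates lysine 4 of histone H3 (H3K4). It is best known as the antagonist of Polycomb group repression at homeotic genes. Set1 and Trithorax-related (Trr) are the other H3K4 methyltransferases of this family in flies, and all 3 work with the shared subunits ash2, Rbbp5 and wds. Rh1-Gal4 uses the promoter of ninaE, the gene for Rhodopsin 1, and is active in the outer photoreceptors R1 to R6, which sense motion and dim light through the phospholipase C cascade and release histamine onto neurons of the lamina. The tagged nuclei were pulled from homogenized heads with an antibody to GFP, so nuclei of other head cells can also be recovered, and the RNA measured was nuclear.

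The control libraries were sequenced on a HiSeq and the Trx RNAi libraries on a NovaSeq X Plus, so genotype and sequencing platform cannot be told apart in this comparison. This is as the design labels give it, whereas the methods of the study name a HiSeq for RNA-seq as a whole. The Trr RNAi libraries of the study were run on the same platform as Trx RNAi and are used at the end for a comparison free of that difference. Total counts were 8522393 to 21479511 per mCherry RNAi library (median 11796731) and 12329931 to 24586538 per Trx RNAi library (median 16347729). The 10 most abundant features took 13.4 to 18.2% of the counts in the controls and 7.3 to 10.6% with Trx RNAi. Mitochondrially encoded features took 0.043 to 0.138% and 0.232 to 0.701%, and ribosomal RNA took 0.004 to 0.019% and 0.065 to 0.185%. One control library, mCherry RNAi ZT12 replicate 1, stood apart: it had counts on 8362 FBgn features, against 12597 to 15448 in the other 17 control libraries and 14468 to 15300 with Trx RNAi. Without it the counts of genes given below changed from 3538 to 3488 higher and from 1706 to 1719 lower. The outer photoreceptor label was checked on its defining gene, and ninaE was among the most abundant transcripts of both genotypes, at 9536 to 16000 CPM (median 12639) in mCherry RNAi and 3489 to 6219 CPM (median 4840) in Trx RNAi. Since bulk libraries were sequenced, fewer nuclei of a cell type and less RNA per nucleus cannot be told apart in any result below.

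The nuclear transcript of the targeted gene, trx, was only slightly lower with Trx RNAi. It had 461 to 689 CPM (median 559.8) in mCherry RNAi and 414 to 590.3 CPM (median 491) in Trx RNAi (CPM here are scaled by TMM, the trimmed mean of M values). The ranges overlapped, and 5 of the 18 Trx RNAi libraries lay below every control library. The difference (log2 fold change -0.20, SE 0.05, adjusted p = 4.1e-04, edgeR's quasi-likelihood test, Benjamini-Hochberg adjustment) did not reach the fold required below. For trx it was -0.07 with DESeq2's size factors (adjusted p = 0.213 in edgeR) and -0.10 without replicate 2 of every group (adjusted p = 0.179), and 0.53 in the opposite direction when libraries were scaled by their totals alone. Trx protein was not measured here. By CUT&RUN, which profiles histone marks, the paper reports that Trx RNAi lowered trimethylated and dimethylated H3K4 at promoters in photoreceptors. It also measured transcripts in its RNAi lines by qRT-PCR under a ubiquitous driver. None of the 18 members of the H3K4 methylation list, trx included, passed the call. Among the methyltransferases, trr stood at 195 to 115 CPM in the medians (control to Trx RNAi; log2 fold change -0.90 ± 0.062, SE) and Set1 at 272 to 187 CPM (-0.54 ± 0.074). Hcf, a host cell factor subunit, and Ncoa6, a subunit of the Trr complex, had no overlap between the genotypes, at -0.67 and -0.82 on the log2 scale, while ash2 was the 1 member of the list with every Trx RNAi library above every control (0.73). The summed level of the list was 2330 to 3057 CPM in the controls and 1770 to 2241 CPM with Trx RNAi, and its median log2 change of -0.23 became 0.51 when scaled by library totals.

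Over the day as a whole, 3538 genes (30.3% of those tested) rose and 1706 genes (14.6%) fell with Trx RNAi, and the other 6441 did not pass. A gene is said to rise or fall where the mean difference over the 6 time points had an adjusted p under 0.01 and a log2 fold change of at least 1 in either direction. The genes that rose were mostly scarce in the controls, with a median of their mean levels of 2.95 CPM that became 11.2 CPM with Trx RNAi. A gene could be tested through the Trx RNAi groups alone, which favours rises among scarce genes. With at least 1 CPM asked of every library, 1398 genes rose and 890 fell. The genes that fell were more abundant, with a median of 35.9 CPM in the controls and 9.69 CPM with Trx RNAi. The median log2 change was 1.85 for the genes that rose and -1.64 for those that fell, and 1442 and 571 genes passed 2 and -2. In 2335 genes (20%) every Trx RNAi library lay above every control library, and in 1186 (10.1%) every one lay below, and 2587 and 1490 did so with the control library that stood apart left out. Counts in the gene lists below stand against these shares, 30.3% for rises, 14.6% for falls, and 20% and 10.1% without overlap. The balance depended on the scaling: genes that rose were 67.5% of the calls here, 87.8% with library totals alone and 50.6% with 3 factors of unwanted variation. The paper states that it used such factors (RUVseq) for batch effects in its knockdown RNA-seq, whereas the main fit here held none. With 1 factor 2862 genes rose and 1892 fell. The median log2 change over all tested genes moved from 0.17 to 0.91 with library totals, so the changes of single genes below are relative to a scaling that puts the bulk of genes near 0. No gene that rose here fell under any of these scalings, and none that fell rose.

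**Figure D1:**
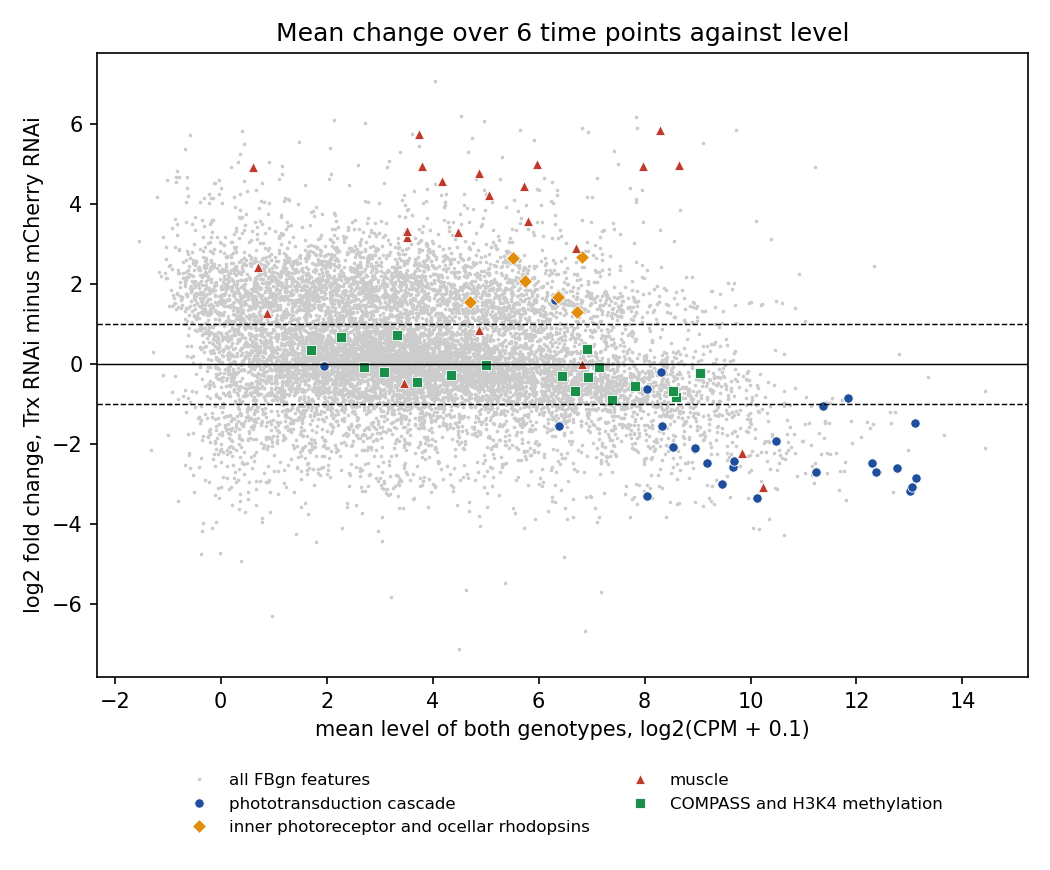
Each point is 1 of the 11685 tested genes, with the mean level of both genotypes (log2 of CPM plus 0.1) on the x axis and the log2 fold change of Trx RNAi minus mCherry RNAi on the y axis, and dashed lines at 1 and -1. Most phototransduction genes (blue) lie at the abundant end below -1, the muscle genes (red) mostly lie above 1, the 6 other rhodopsins (orange) lie above 1, and the 18 H3K4 methylation genes (green) lie between the lines.

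The 12 largest rises held 8 noncoding RNAs, mostly small nucleolar RNAs, and 4 protein-coding genes. Mhc, the muscle myosin heavy chain (FBgn0264695, chromosome 2L, 16766566 to 16788766, + strand, protein coding), had 4.01 to 18.7 CPM (median 10.1) in mCherry RNAi and 304 to 992 CPM (median 579) in Trx RNAi (log2 fold change 5.86, SE 0.183, adjusted p = 2.5e-23). Mlp60A, a muscle LIM protein, had 0.129 to 0.87 CPM (median 0.436) in mCherry RNAi and 16.8 to 40.7 CPM (median 24.9) in Trx RNAi (5.76 ± 0.165). Mlp60A was under 1 CPM in every control library, so it was tested through the Trx RNAi groups alone. Separate ranges were asked by the rule that named these genes. Obp56d, an odorant-binding protein gene, had 0 to 2.25 CPM (median 0.776) in mCherry RNAi and 30.4 to 85.8 CPM (median 63.6) in Trx RNAi (6.08 ± 0.195). Listericin, an antibacterial protein gene under immune control, had 0 to 1.43 CPM (median 0.346) in mCherry RNAi and 12.1 to 39.0 CPM (median 20.3) in Trx RNAi (5.75 ± 0.233). The control medians of Mlp60A, Obp56d and Listericin were under 1 CPM, so the sizes of their folds are uncertain. The other 8 features among the 12 largest rises were noncoding: the 5 snoRNAs that guide pseudouridylation named snoRNA:Psi18S-1820, snoRNA:Psi28S-3308, snoRNA:Psi18S-531, snoRNA:Psi18S-1397 and snoRNA:Psi28S-2622, the spliceosomal snRNA:U1:95Cc, which is 1 of several near-identical U1 copies, and the ribosomal features pre-rRNA:CR45846 and 28SrRNA-Psi:CR45855, both from repeated sequence. Their log2 changes ran from 5.62 for 28SrRNA-Psi:CR45855 to 7.08 for pre-rRNA:CR45846, and these 8 are uncertain where reads are shared with copies.

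The largest falls included regulators of photoreceptor identity and function. The transcription factor glass, gl (FBgn0004618, chromosome 3R, 18367927 to 18372738, - strand, protein coding), which is required for photoreceptor identity, had 749 to 1402 CPM (median 1001) in mCherry RNAi and 71.7 to 113 CPM (median 80.7) in Trx RNAi (log2 fold change -3.55, SE 0.063, adjusted p = 6.0e-29). All Trx RNAi libraries lay below all controls by a wide gap. The transcription factor gene retained, retn, had 892 to 1722 CPM (median 1147) in mCherry RNAi and 84.2 to 149 CPM (median 104) in Trx RNAi (-3.48 ± 0.06). DCX-EMAP, a doublecortin-family gene known from mechanosensory neurons, had 254 to 667 CPM (median 428) in mCherry RNAi and 24.1 to 59.6 CPM (median 36.3) in Trx RNAi (-3.49 ± 0.087). Cib2, a calcium- and integrin-binding protein gene needed in fly photoreceptors, went from 81.7 to 6.50 CPM in the medians (-3.59 ± 0.101). Crg-1, a fork head gene described as clock regulated, went from 155 to 4.74 CPM (-4.81 ± 0.152). The gene sowi went from 1464 to 77.5 CPM (-4.08 ± 0.109). The set was completed by Tsen15 (-5.64), the microRNA genes mir-31b (-4.42) and mir-4968 (-3.82), Osi2 (-4.16), inaF-D (-4.08) and Hsp70Bb (-3.82). Tsen15 and inaF-D overlap other annotated genes over 76.6% and 84.1% of their exons, and the Hsp70 genes are near-identical copies, so their values are uncertain. All 24 of these genes kept their direction at each of the 6 time points and had no overlap between the genotypes, since the rule that named them asked for both.

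**Figure D2:**
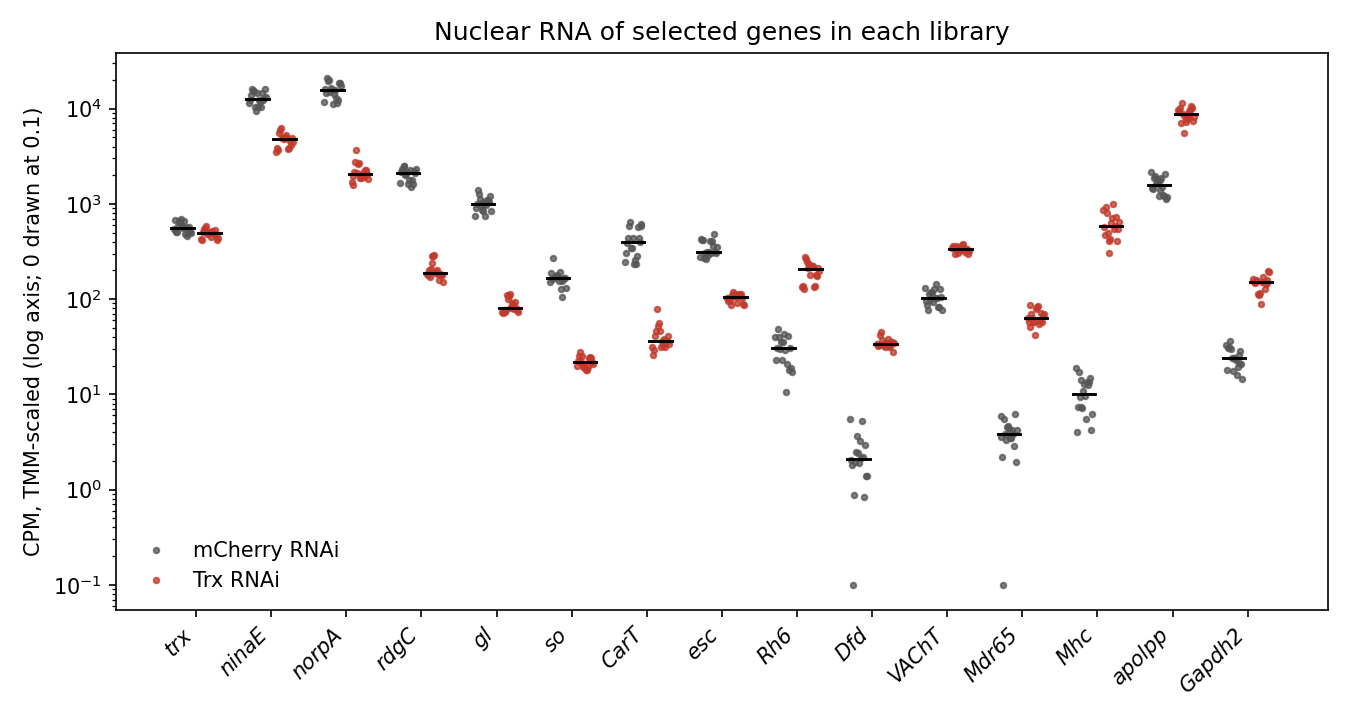
Each point is the CPM of 1 gene in 1 library (log axis, 0 drawn at 0.1), 18 mCherry RNAi libraries in grey and 18 Trx RNAi libraries in red, and black bars are medians. The ranges overlap for trx, lie apart and lower with Trx RNAi from ninaE to esc, and lie apart and higher with Trx RNAi from Rh6 to Gapdh2.

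Phototransduction genes fell across the cascade. Of its 25 members, all tested, 20 fell and 1 rose, with a median log2 change of -2.41 against 0.17 over all genes. The same 20 had no overlap between the genotypes, against 10.1% of all tested genes that lay wholly below the controls. Summed, the list held 80422 to 146480 CPM in the controls and 18357 to 32462 CPM with Trx RNAi. At the top of the cascade, ninaE fell (log2 fold change -1.47, SE 0.055, adjusted p = 2.4e-21). With library totals as the scaling ninaE was no longer called. The Gq heterotrimer that Rhodopsin 1 activates fell in all its eye subunits, Galphaq by -2.06 ± 0.075, Gbeta76C by -2.46 ± 0.081 and Ggamma30A by -2.58 ± 0.085 on the log2 scale. The phospholipase C gene norpA had 11137 to 20809 CPM (median 15685) in mCherry RNAi and 1568 to 3698 CPM (median 2077) in Trx RNAi (log2 fold change -2.84, SE 0.064, adjusted p = 1.0e-26). The light-gated channels followed, trp at -2.69 ± 0.068 and trpl at -3.17 ± 0.073, while the related Trpgamma did not pass (-0.05 ± 0.161).

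Terminating and recycling steps fell as well, though not evenly. The rhodopsin phosphatase rdgC had 1501 to 2502 CPM (median 2118) in mCherry RNAi and 152 to 288 CPM (median 186) in Trx RNAi (log2 fold change -3.34, SE 0.063, adjusted p = 1.8e-28), a larger fall than that of ninaE. The diacylglycerol kinase rdgA had 7078 to 23670 CPM (median 15463) in mCherry RNAi and 1290 to 3272 CPM (median 1544) in Trx RNAi (-3.05 ± 0.071), and the lipid transfer protein gene rdgB changed by -1.92 ± 0.061. By contrast the lipid phosphatase gene laza, which acts against rdgA in the same lipid cycle, rose from 37.4 to 119.7 CPM in the medians (1.6 ± 0.127), with every Trx RNAi library above every control. The arrestins, which quench active rhodopsin, changed less than ninaE: Arr1 fell at -1.04 ± 0.073, close to the threshold and not called under 14 of the 54 alternative settings, and Arr2 stood at -0.84 ± 0.06 and did not pass, with 17 of 18 Trx RNAi libraries below all controls. The scaffold inaD (-2.41), the protein kinase C gene inaC (-2.57), the myosin ninaC (-2.48), the retinophilin gene rtp (-3.28), stops (-3.0) and the exchanger Calx (-2.68) all fell. The kinase Gprk1 and the lipase inaE did not pass, at -0.61 and -0.18. Scaling by library totals gave 16 falls in the list in place of 20, and 3 factors of unwanted variation gave 19.

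Rhodopsin maturation genes split by direction. Of the 7 of 10 members tested, 3 fell and 3 rose. The chaperone calnexin, Cnx99A, had 348 to 2265 CPM (median 708) in mCherry RNAi and 92.1 to 297 CPM (median 131) in Trx RNAi (-2.50 ± 0.059), and ninaG, an oxidoreductase for the chromophore, and ninaD, a carotenoid scavenger receptor, fell by -2.59 ± 0.091 and -2.41 ± 0.198. The members that rose were santa-maria (2.58 ± 0.12), another carotenoid receptor known from glia and neurons rather than photoreceptors, and pinta (2.32 ± 0.127) and Pdh (1.47 ± 0.106), a retinoid-binding protein and a retinol dehydrogenase of pigment cells. The chaperone genes ninaA and Xport-A took no read in any of the 36 libraries and could not be compared, since their exons lie wholly within other annotated genes and reads on overlapping genes were not assigned.

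Genes of the rhabdomere, the stack of light-sensing microvilli, fell with the cascade: 6 of 8 members fell, none rose, and the median was -2.11. Prominin, prom, had 1064 to 2292 CPM (median 1823) in mCherry RNAi and 124 to 279 CPM (median 157) in Trx RNAi (-3.35 ± 0.067). Chaoptin, chp, which holds microvilli together, changed by -2.66 ± 0.053, and eys, which fills the space between rhabdomeres, by -2.27 ± 0.056. The apical polarity genes crb and sdt changed by -2.54 ± 0.055 and -1.95 ± 0.056 and the moesin gene Moe by -1.64 ± 0.055, whereas their partners Patj and veli did not pass, at -0.62 and 0.19. Summed, the list stood at 9486 to 18889 CPM in the controls and 2015 to 3784 CPM with Trx RNAi, without overlap.

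Eye transcription factors moved both ways, 7 down and 10 up of 22 tested (31.8% and 45.5%, against 14.6% and 30.3% of all tested genes). Besides gl, the falls were in so (log2 fold change -2.92, SE 0.072, adjusted p = 7.5e-26), a sine oculis homeobox gene of the retinal determination network with 106 to 268 CPM (median 167) in mCherry RNAi and 17.9 to 27.9 CPM (median 21.8) in Trx RNAi, in the homeobox genes oc (-3.42 ± 0.077), Pph13 (-2.69 ± 0.059) and dve (-2.75 ± 0.061), and in onecut (-1.56 ± 0.062) and the Pax6 gene toy (-1.30 ± 0.063). Of these, oc, Pph13 and gl are known activators of rhodopsin and phototransduction genes, and dve keeps inner rhodopsins silent in outer photoreceptors. The other Pax6 gene, ey, did not pass (-0.16 ± 0.059), nor did eya (0.77 ± 0.056), although every Trx RNAi library lay above every control for eya. The rises were in svp (2.24 ± 0.089), salm (2.10 ± 0.158), salr (1.77 ± 0.097), ss (2.31 ± 0.189), pros (1.49 ± 0.099), Optix (1.72 ± 0.126), dac (1.44 ± 0.089), hth (1.91 ± 0.097), lz (1.70 ± 0.165) and sens (2.43 ± 0.313). Several of those are known from inner photoreceptors, salm and salr in R7 and R8, pros in R7, sens in R8 and hth at the dorsal rim, and several are used in the brain as well. Others that rose, such as svp and lz, are not counted as inner photoreceptor genes here. With 3 factors of unwanted variation 7 genes of the list rose and 9 fell, and salm, lz and sens were no longer called. The call of sens was also lost with 1 factor, and those of onecut and toy with library totals. Whether the rises follow photoreceptor type was not tested.

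The rhodopsins of cells that Rh1-Gal4 does not target rose, all 6 of them. Rh6, of R8 cells, had 10.5 to 48.3 CPM (median 30.3) in mCherry RNAi and 128 to 280.0 CPM (median 206) in Trx RNAi (log2 fold change 2.70, SE 0.131, adjusted p = 2.5e-18), and Rh5, also of R8, had 4.12 to 22.2 CPM (median 12.6) in mCherry RNAi and 51.6 to 113 CPM (median 72.8) in Trx RNAi (2.66 ± 0.123). The R7 rhodopsins Rh3 and Rh4 changed by 1.30 ± 0.102 and 1.70 ± 0.117, with small overlaps between the genotypes. Rh2 of the ocelli changed by 1.57 ± 0.124 and Rh7, found in brain clock neurons and the retina, by 2.08 ± 0.112. With 3 factors of unwanted variation Rh2 and Rh3 were no longer called. Per kilobase of exon, the mean level of ninaE was 8138 CPM in the controls and 2947 CPM with Trx RNAi, against 21.2 and 139 CPM for Rh6 and 43.4 and 108 CPM for Rh3, so ninaE remained far above them in both genotypes. Summed, these 6 genes stood at 95.4 to 284 CPM in the controls and 519 to 886 CPM with Trx RNAi. Lens genes were read beside them. Crys and retinin, proteins of the corneal lens, rose by 2.74 ± 0.23 and 1.96 ± 0.136, and sv, the Pax2 gene of cone cells, by 2.36 ± 0.09. Of the 10 lens and pigment genes tested, 6 rose, and the 2 that fell were w (-3.31 ± 0.117) and g (-2.18 ± 0.072). White, w, is also a transgene marker and its level can include reads from transgenes, so it is not read as a pigment gene here.

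Genes of histamine transmission moved both ways, 5 down and 3 up of 10 tested. Hdc, which makes histamine, had 170.5 to 366 CPM (median 236) in mCherry RNAi and 28.8 to 67.7 CPM (median 41.6) in Trx RNAi (-2.48 ± 0.078). The carcinine transporter CarT had 235 to 653 CPM (median 394) in mCherry RNAi and 26.0 to 79.1 CPM (median 36.5) in Trx RNAi (log2 fold change -3.32, SE 0.096, adjusted p = 3.8e-24), and lovit, which loads histamine into vesicles, and t (tan), which frees it from carcinine, changed by -2.80 ± 0.068 and -2.25 ± 0.071. No Trx RNAi library reached the controls for any of these. Of the receptors, HisCl1 fell (-2.20 ± 0.059) and ort, which lamina neurons use, rose from 5.15 to 21.1 CPM in the medians (2.02 ± 0.161). The transporter gene ine (2.07 ± 0.091) and the innexin ogre (2.11 ± 0.153) also rose, while e (ebony) and Inx2 did not pass, at 0.41 and 0.32.

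Active zone and synaptic vesicle genes fell in 12 of 15, among them the active zone scaffold brp (-1.48 ± 0.068), the tether Rim (-1.85 ± 0.077), the calcium channel cac (-1.47 ± 0.069), complexin, cpx (-1.59 ± 0.083), and synapsin, Syn, with 1929 to 4004 CPM (median 2737) in mCherry RNAi and 461 to 857 CPM (median 579) in Trx RNAi (log2 fold change -2.15, SE 0.059, adjusted p = 9.5e-25). Rop, the Munc18 gene, was the 1 member that rose (1.15 ± 0.061), and the SNARE genes Syx1A and Snap25 did not pass, at -0.76 and -0.46. With library totals as the scaling, 3 of the 12 falls remained calls. Ion channels and pumps divided into 7 that fell and 8 that rose of 20 (35.0% and 40.0%, against 14.6% and 30.3% of all tested genes). The falls held the potassium channels Sh (-2.13 ± 0.109) and eag (-2.70 ± 0.076), the modulator Slob (-2.72 ± 0.057) and the sodium pump subunits Atpalpha (-1.46 ± 0.058) and nrv3 (-1.92 ± 0.093). The rises held the voltage-gated sodium channel para, at 474 to 1025 CPM (median 665) in mCherry RNAi and 1490 to 2844 CPM (median 2230) in Trx RNAi (1.58 ± 0.098), and the pump subunit nrv1 (2.05 ± 0.099), the ryanodine receptor RyR (1.85 ± 0.097) and the inward rectifier Irk2 (1.79 ± 0.084).

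Core clock genes cycle, and for several of them the difference changed sign over the day. Averaged, per (-1.58 ± 0.078), tim (-1.48 ± 0.053), Clk (-2.13 ± 0.091) and Pdp1 (-1.96 ± 0.102) fell and cry (1.05 ± 0.092) rose of 9 genes. With library totals as the scaling, per and tim were no longer called, and cry was not called in a fit of FBgn features alone or with glmTreat. The libraries overlapped for all 9, and the control range of tim alone was 379.8 to 22608 CPM. The difference changed with time in 8 of them at an adjusted p under 0.05, against 1687 of all tested genes (14.4%). For per it ran from -2.99 at ZT8 to 0.42 at ZT20, and for Clk, which peaks at the opposite phase, from -3.54 at ZT20 to -0.48 at ZT12. The repressors cwo and Cipc had mean differences of -0.36 and -0.12 on the log2 scale and did not pass, yet stood at 1.83 and 1.64 at ZT4 and at -2.13 and -2.68 at ZT8. A mean near 0 in these genes therefore covers differences of both signs.

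**Figure D3:**
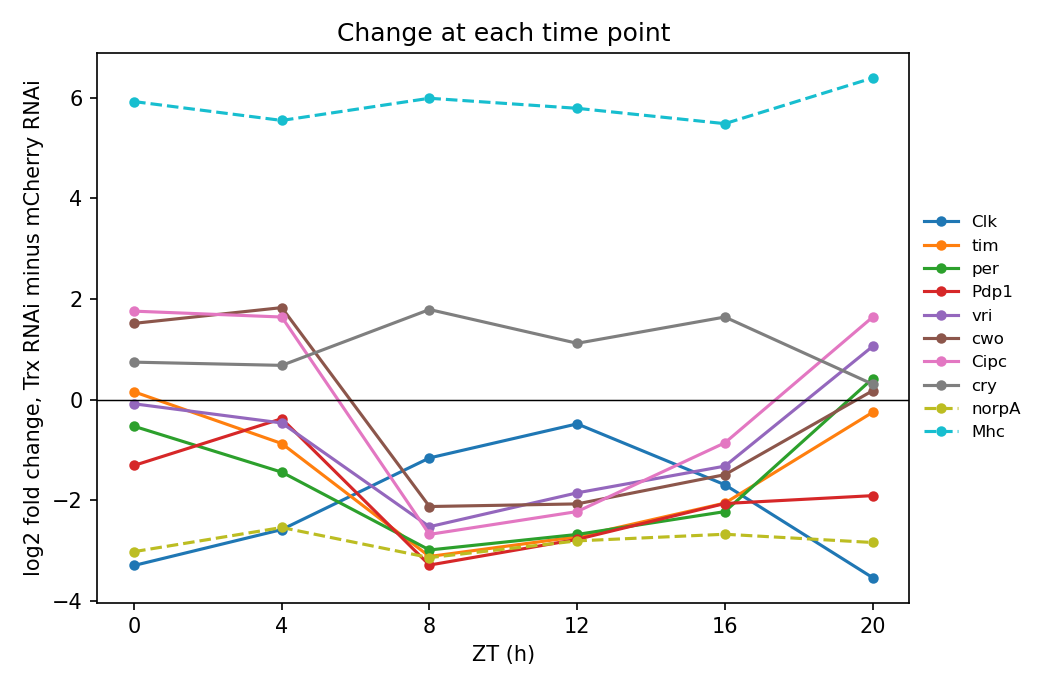
The y axis is the log2 fold change of Trx RNAi minus mCherry RNAi at each ZT (x axis, hours), 3 libraries per genotype and time point, for 8 core clock genes (solid) and for norpA and Mhc (dashed). The clock genes cross or approach 0 at some time points, while norpA stays below -2 and Mhc above 5 at all 6.

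Homeotic and developmental regulators, the classical Trx targets, were scarce in the controls and mostly rose. Against Trr RNAi the median log2 differences of the Hox and other developmental lists were only -0.12 and -0.05. Of 6 of 8 Hox genes tested, 4 rose and none fell. Genes scarce in the controls could be tested through the Trx RNAi groups alone, which favours a rise. No Hox gene stayed in the test when at least 1 CPM was asked of every library. Dfd (FBgn0000439, chromosome 3R, 6791836 to 6802428, + strand, protein coding), which patterns the head, had 0 to 5.56 CPM (median 2.10) in mCherry RNAi and 28 to 44.6 CPM (median 34.0) in Trx RNAi (log2 fold change 3.94, SE 0.179, adjusted p = 4.4e-19). Proboscipedia, pb, had 0 to 4.41 CPM (median 1.36) in mCherry RNAi and 9.97 to 15.1 CPM (median 12.9) in Trx RNAi (2.97 ± 0.176), and Scr and Antp changed by 2.75 ± 0.283 and 1.39 ± 0.248. With 1 factor of unwanted variation the change of Antp was -0.25 and it was no longer called. Labial, lab, and Ubx did not pass, at 0.62 and 0.76. Of 24 other developmental regulators tested, 19 rose and 3 fell. The rises included the segment polarity genes en (2.13 ± 0.213), inv (2.64 ± 0.175), hh (3.34 ± 0.33) and wg (1.81 ± 0.225), the paired ladybird genes lbl (3.13 ± 0.222) and lbe (3.13 ± 0.203), and dpp (1.84 ± 0.078) and ct (1.47 ± 0.114). The 3 that fell were toe (-3.0 ± 0.11), an eyegone relative of the eye field with 10.0 to 54.8 CPM (median 33.8) in mCherry RNAi and 3.02 to 5.53 CPM (median 4.33) in Trx RNAi, ftz (-2.08 ± 0.187) and vnd (-1.11 ± 0.099). Without the control library that stood apart, 18 of these 24 genes rose and 3 fell. With 3 factors of unwanted variation 6 rose, and with at least 1 CPM asked of every library 4 did.

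Polycomb group genes, the repressors that Trx opposes, were mostly not called. Of 19, 5 fell and 1 rose (26.3% and 5.26%, against 14.6% and 30.3% of all tested genes). Extra sex combs, esc, a core subunit of the H3K27 methyltransferase complex PRC2, had 264 to 479.8 CPM (median 312) in mCherry RNAi and 87.1 to 119 CPM (median 104) in Trx RNAi (log2 fold change -1.74, SE 0.064, adjusted p = 1.8e-21). Its partner Su(z)12 (-1.09 ± 0.047), the PRC1 genes Psc (-1.40 ± 0.086) and Su(z)2 (-1.28 ± 0.053) and the DNA-binding pho (-1.13 ± 0.089) fell less, and the histone chaperone Caf1-55 rose (1.13 ± 0.142). The catalytic E(z) stood at -0.12 ± 0.112 and Pc at -0.41 ± 0.059, neither called. Su(z)12 and pho, close to the threshold, were each not called under 6 of the 54 alternative settings. With DESeq2's size factors 3 Polycomb genes fell. With library totals 1 Polycomb gene fell, and the median of the list went from -0.41 to 0.33. Of 19 elongation factor genes, Nelf-A (-1.29 ± 0.075), Su(Tpl) (-1.16 ± 0.056) and lilli (-1.26 ± 0.079) fell and none rose. These 3 are 15.8% of the list, near the 14.6% of all tested genes that fell, the median of the list was -0.03, and none of the 3 fell with library totals.

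**Figure D4:**
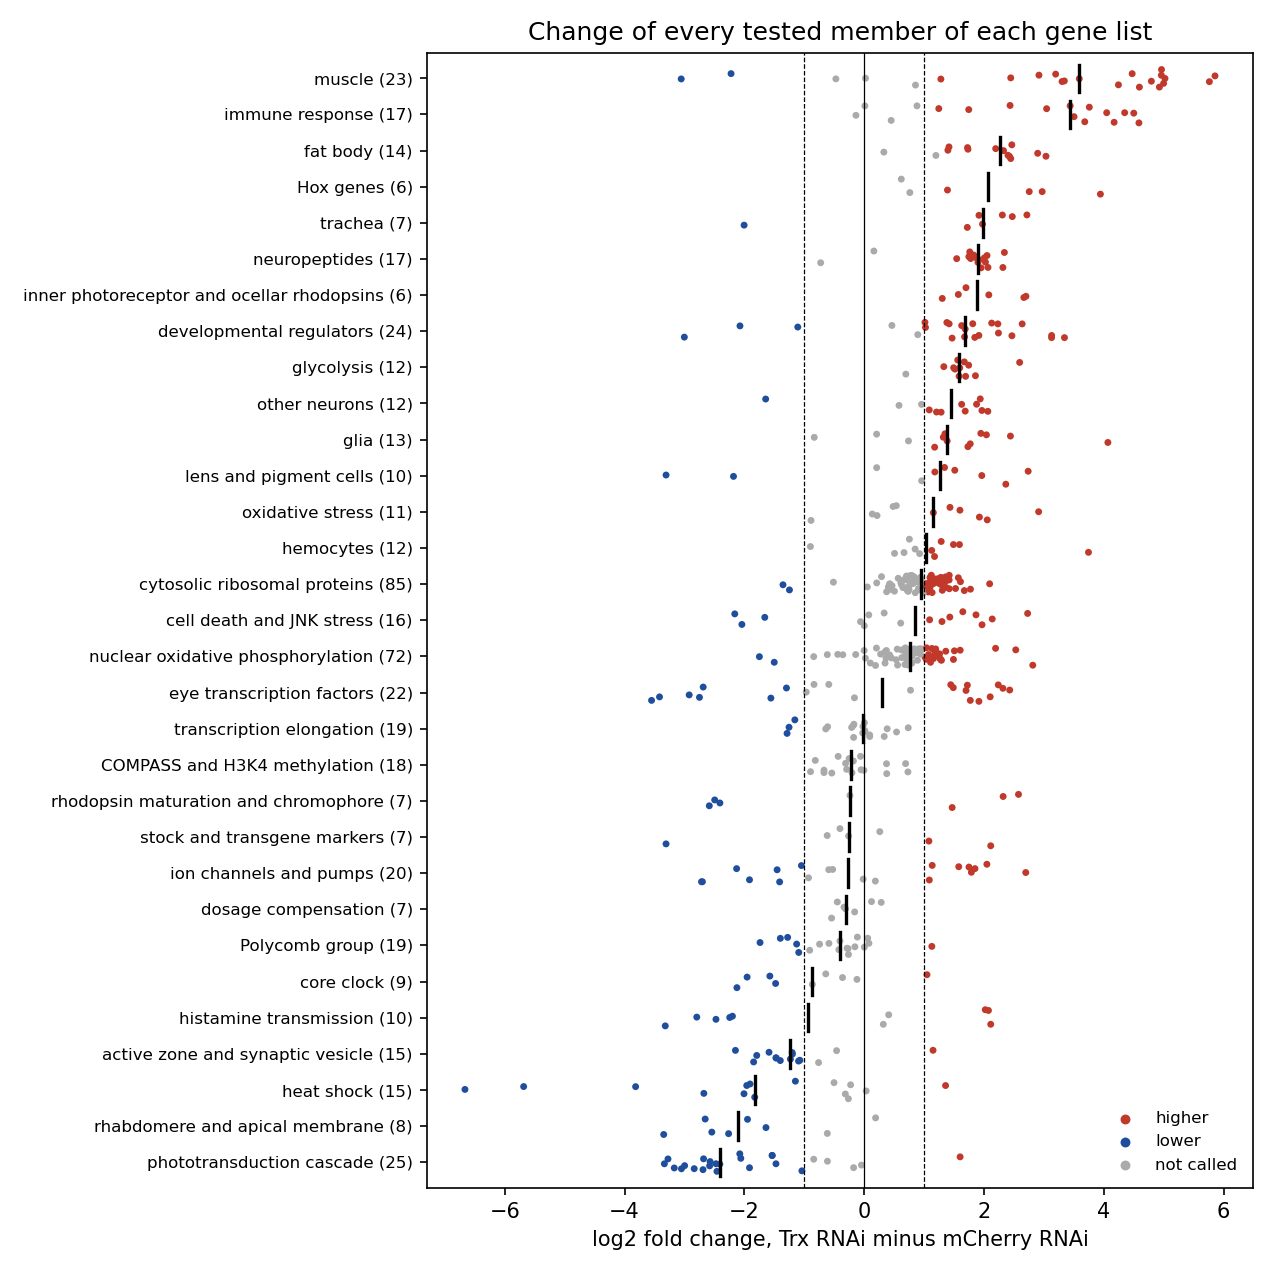
Each point is the log2 fold change of 1 tested gene, red where it rose, blue where it fell and grey where it did not pass, with a black bar at the median of each list and dashed lines at 1 and -1 (number tested in brackets). Medians lie below -2 for phototransduction and the rhabdomere and above 3 for muscle and the immune response. The immune median was 0.68 when at least 1 CPM was asked of every library.

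Markers of other cells that a head homogenate can hold were mostly higher with Trx RNAi. Among 12 genes of other neurons, 9 rose, including VAChT, the vesicular acetylcholine transporter, with 76.4 to 145 CPM (median 104) in mCherry RNAi and 294 to 376 CPM (median 334) in Trx RNAi (log2 fold change 1.69, SE 0.067, adjusted p = 1.7e-20), Gad1, which makes GABA (2.06 ± 0.084), VGlut (1.28 ± 0.065) and ple, which makes dopa (1.96 ± 0.103). The exception was Trhn, a tryptophan hydroxylase (-1.65 ± 0.109). Of 17 neuropeptide genes tested, 15 rose, such as sNPF (2.31 ± 0.181) and Nplp1 (2.05 ± 0.102), and Pdf did not pass (0.16 ± 0.125). Of 13 glial genes, 10 rose, with repo, the pan-glial homeobox gene, at 4.92 to 24.4 CPM (median 15.4) in mCherry RNAi and 45.4 to 63.7 CPM (median 50.7) in Trx RNAi (1.77 ± 0.11) and the blood-brain barrier transporter Mdr65 at 0 to 6.24 CPM (median 3.82) in mCherry RNAi and 41.6 to 85.9 CPM (median 63.0) in Trx RNAi (4.07 ± 0.167). Summed, the neuronal list stood at 406 to 665 CPM in the controls and 1125 to 1400 CPM with Trx RNAi. The glial list stood at 484 to 1432 CPM and 1021 to 1263 CPM, with some overlap. With at least 1 CPM asked of every library, which leaves fewer genes in the test, 7 neuronal, 3 neuropeptide and 6 glial genes rose. With 3 factors of unwanted variation 6, 10 and 7 did.

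Muscle, fat body, blood and tracheal markers followed. Of 23 muscle genes 18 rose with a list median of 3.59, among them the titin-like sls, with 9.90 to 39.4 CPM (median 22.1) in mCherry RNAi and 425 to 1256 CPM (median 728) in Trx RNAi (log2 fold change 5.0, SE 0.155, adjusted p = 2.1e-23), bt (4.96 ± 0.14), Act57B (5.02 ± 0.149) and the troponin gene wupA (4.59 ± 0.165). Tm1 (-2.22 ± 0.057) and Zasp52 (-3.06 ± 0.07), both also used outside muscle, fell, and since they were abundant in the controls the summed level of the list did not rise (2526 to 5595 CPM against 2086 to 5092 CPM). Of 14 fat body genes 12 rose, led in abundance by apolpp, the lipophorin precursor, with 1119 to 2154 CPM (median 1559) in mCherry RNAi and 5515 to 11366 CPM (median 8799) in Trx RNAi (log2 fold change 2.46, SE 0.088, adjusted p = 7.5e-22), and with Lsd-1 (3.03 ± 0.077) and tobi (2.43 ± 0.145). Their sum stood at 1949 to 4460 CPM and 8069 to 16177 CPM. Of 12 hemocyte genes 6 rose, such as Pxn (1.49 ± 0.072), and of 7 tracheal genes 6 rose and verm fell (-2.01 ± 0.072). With at least 1 CPM asked of every library, 6 muscle, 7 fat body, 5 hemocyte and 1 tracheal genes rose. The muscle median was then 3.82, and the tracheal median went from 1.97 to 0.59. With 3 factors of unwanted variation 16, 10, 3 and 2 genes of these lists rose. The part of these marker differences in the results on other genes was not tested, and neither was the recovery of other nuclei.

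**Figure D5:**
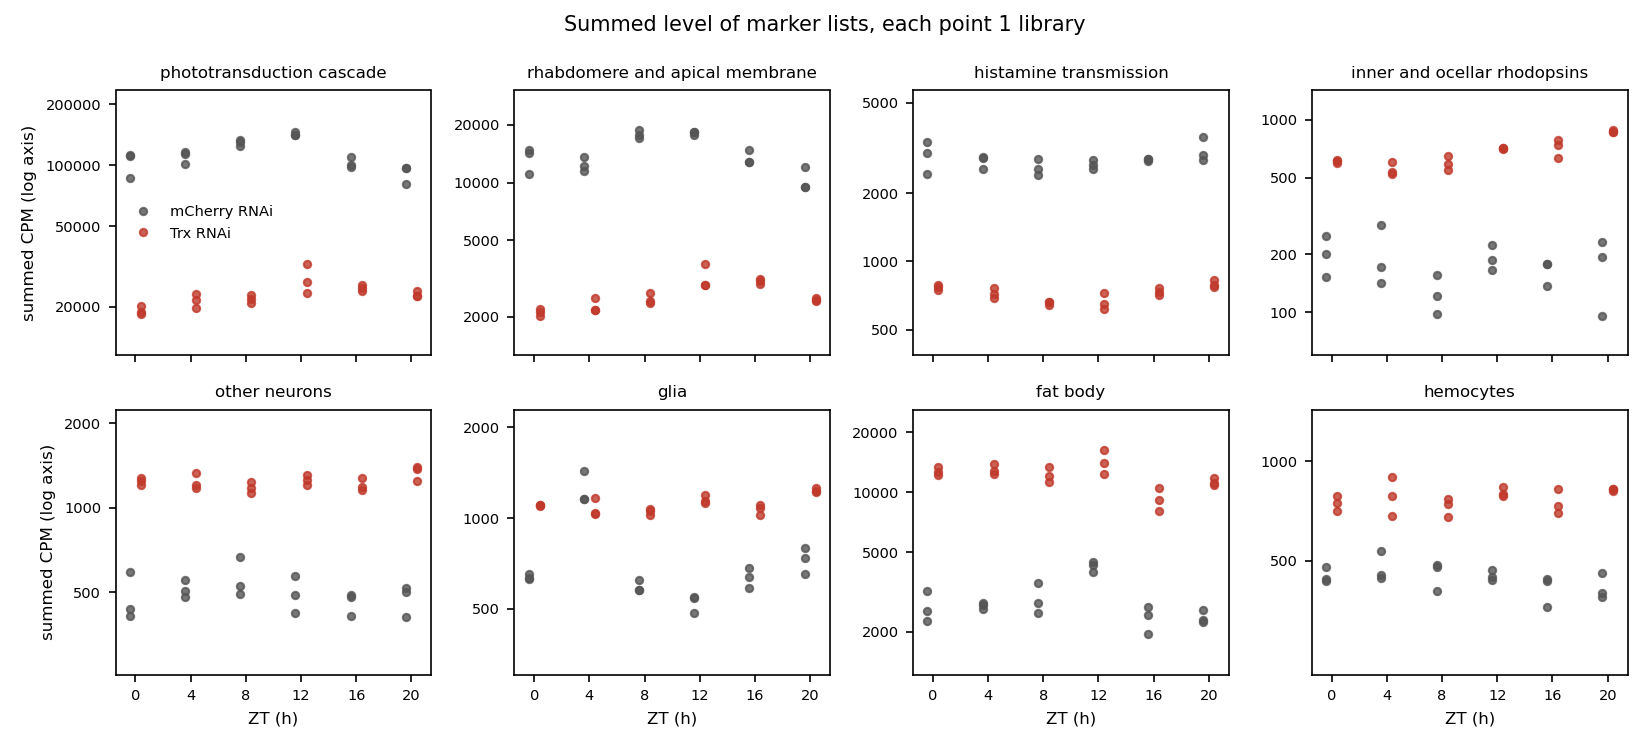
Each point is the summed CPM (log axis) of a marker list in 1 library at each ZT (x axis, hours), grey for mCherry RNAi and red for Trx RNAi. The Trx RNAi libraries lie below every control for the phototransduction, rhabdomere and histamine lists and above every control for the inner and ocellar rhodopsin, other neuron, fat body and hemocyte lists, and the glial lists overlap at ZT4.

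Stress genes did not rise together. Of 15 heat shock genes 9 fell and 1 rose. The heat shock co-chaperone genes DnaJ-1 (-1.83 ± 0.156) and stv (-2.01 ± 0.107) had no overlap between the genotypes, with DnaJ-1 at 142 to 885 CPM (median 259) in mCherry RNAi and 66.9 to 109 CPM (median 90.1) in Trx RNAi. The Hsp70 copies varied widely among the controls, Hsp70Aa from 3.17 to 1407 CPM, and stayed within 0.751 to 3.71 CPM with Trx RNAi. Hsp83 and the constitutive Hsc70-4 did not pass, at -0.23 and 0.03. Antimicrobial genes rose in 13 of 17 immune genes, but unevenly: Mtk had 0 to 3.48 CPM (median 0.87) in mCherry RNAi and 5.09 to 109.5 CPM (median 17.8) in Trx RNAi (4.35 ± 0.347), a spread of more than an order of magnitude within Trx RNAi, and Drs did not pass (-0.14 ± 0.125). With 3 factors of unwanted variation 3 immune genes rose. With at least 1 CPM asked of every library 1 did, and the list median went from 3.44 to 0.68. The antioxidant genes Cat (2.05 ± 0.088), GstD1 (2.91 ± 0.18) and Sod1 (1.43 ± 0.149) were among 6 of 11 that rose (54.5%, against 30.3% of all tested genes). Of 16 cell death and JNK genes 8 rose and 3 fell. The pro-apoptotic hid (1.65 ± 0.161) and the TNF gene egr (2.73 ± 0.161) rose, and the JNK target puc fell, with 119 to 1069 CPM (median 449) in mCherry RNAi and 59.4 to 179 CPM (median 102) in Trx RNAi (-2.04 ± 0.054).

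Glycolytic genes rose nearly throughout, while 44.7% of cytosolic ribosomal protein genes and 34.7% of nuclear oxidative phosphorylation genes rose, against 30.3% of all tested genes. Of 12 glycolytic genes 11 rose, with Gapdh2 at 14.4 to 36.6 CPM (median 23.8) in mCherry RNAi and 89.4 to 199 CPM (median 152) in Trx RNAi (log2 fold change 2.59, SE 0.09, adjusted p = 3.7e-22), Pfk at 1.67 ± 0.069 and Eno at 1.58 ± 0.067, and Pgk did not pass (0.69 ± 0.06). Of 85 cytosolic ribosomal protein genes 38 rose and 2 fell with a median of 0.95, just under the threshold, so the count moved from 12 with 3 factors of unwanted variation to 80 with library totals. Nuclear genes of oxidative phosphorylation had a median of 0.77 and 25 rises and 2 falls of 72, or 8 and 60 rises under the same 2 scalings. None of the 7 dosage compensation genes passed, including lncRNA:roX1 (-0.31 ± 0.076), one of the RNAs that coat the male X chromosome.

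The changes were spread over the genome but not over classes of RNA. On the X chromosome 25.8% of 1892 tested genes rose and 15.4% fell, against 29.6 to 33.5% and 14.1 to 14.7% on the 4 large autosomal arms. On chromosome 4, 22.5% of 102 genes rose and 13.7% fell. Of 17 mitochondrially encoded features tested, 15 rose. Small nucleolar RNAs rose in 163 of 226, with a median log2 change of 2.17, and small nuclear RNAs in 21 of 29, whereas of 64 tRNA genes 8 rose and 36 fell with a median of -1.13. Other noncoding RNA genes rose in 34.7% and fell in 30.4% of 924, both above the 28.8% and 13.2% of 10323 protein-coding genes. Among protein-coding genes, falls were most frequent at 9 or more exons (337 of 1684) and in the longest of 4 equal bins by exon length (17.3% of 2581), and the median level of the former in the controls was 113 CPM against 4.35 CPM for genes of 1 exon. Their dependence on level was not separated from that on length.

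The mean difference was usually shared by all time points. Of the genes called, 3426 of 3538 that rose were higher at each of the 6 time points, and 1635 of 1706 that fell were lower at each. Tested at single time points, 2691 to 3424 genes rose and 1389 to 1735 fell, the fewest of both at ZT16. The size of the difference changed with time in 223 of the genes that rose and 484 of those that fell (6.3% and 28.4%), and in 980 genes whose mean did not pass. Of all 1687 genes with such a change, 791 had opposite signs at different time points. This count was sensitive to the libraries included. It was 365 without replicate 2 of every group, 694 without replicate 3, and 2649 without mCherry RNAi ZT12 replicate 1, the library that stood apart.

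The Trx RNAi libraries were last set beside those of Trr RNAi, which had the same driver, tag, age and sequencing platform and the hairpin TRiP.HMS01019 against trr. Of 11540 genes tested, 55 (0.477%) were higher and 33 (0.286%) lower with Trx RNAi than with Trr RNAi under the same call. Of the 5244 genes called against mCherry RNAi, 5049 were tested here, and 62 (1.23%) differed between Trx RNAi and Trr RNAi. Both comparisons share the Trx RNAi libraries. The median absolute log2 difference of those genes was 1.78 against mCherry RNAi and 0.135 against Trr RNAi, and 94.6% lay within 0.5 of Trr RNAi. Without a minimum fold, 1087 of them differed at an adjusted p under 0.01. The phototransduction list had a median log2 difference of -0.09 between Trx RNAi and Trr RNAi and the muscle list 0.22, with no member of either called. For the Hox, other developmental and Polycomb lists it was -0.12, -0.05 and 0.01, with 0, 1 and 0 members called.

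Few named genes separated Trx RNAi from Trr RNAi. The homeobox gene so was lower with Trx RNAi, at 22.9 to 34.6 CPM against 48.2 to 72.5 CPM with Trr RNAi (log2 difference -1.07, SE 0.039, adjusted p = 1.1e-19), and it was the 1 eye transcription factor called in this comparison. Hexim, a subunit that holds the elongation kinase P-TEFb inactive, was lower, at 6.04 to 8.95 CPM against 21.4 to 57.8 CPM (log2 difference -2.17), but not against mCherry RNAi (-0.21 ± 0.183). Higher with Trx RNAi were ftz (1.34), sowi (1.74), pre-rRNA:CR45846 (2.64) and the antimicrobial genes Mtk (1.37) and DptB (1.38). The nuclear transcripts of the methyltransferases themselves did not separate the knockdowns, with trx at -0.14 and trr at 0.09 on the log2 scale. The paper reports that dimethylated H3K4 at promoters fell with Trx but not with Trr RNAi.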

How the data were processed

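Nuclear RNA of anti-GFP-enriched photoreceptor nuclei was prepared with the Ovation SoLo kit with ribosomal RNA depletion and sequenced as paired reads. Per the labels and file headers the authors trimmed reads (Trimmomatic 0.39, cutadapt 3.7), aligned them with HISAT2 2.2.1 to BDGP6 (dm6), sorted them with SAMtools 1.17 and counted exon reads per gene with featureCounts 2.0.1 on Ensembl annotation BDGP6.46. Gene symbols and RNA classes, from a later Ensembl release, matched 17855 of 17895 FBgn features. The deposited values were raw read counts per feature, without strand and without reads that overlap several genes. Reads on exons shared with an overlapping or antisense gene were therefore counted for neither gene.

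The counts of 18 Trx RNAi and 18 mCherry RNAi libraries were fitted in edgeR 4.0.16 (R 4.3.3) by quasi-likelihood with TMM scaling and 12 groups of genotype and time point, and the contrast averaged the 6 genotype differences. Features had at least 1 CPM in all 3 replicates of at least 1 group. Benjamini-Hochberg adjustment covered all 14185 tested features, of which 11685 had FBgn identifiers. SE values are those of the fitted log2 fold change. Trx RNAi and Trr RNAi were fitted in the same way, and CPM set beside Trr RNAi come from that fit. Change between time points was an F test of the interaction at an adjusted p under 0.05. Genes are named if they belong to a gene list that is described or were among the 12 largest rises and 12 largest falls among called genes that have a symbol beyond a CG or CR number, average 10 CPM or more in the genotype with more, keep 1 direction at all 6 time points and do not overlap. Gene lists and comparisons were chosen with earlier results of these data known. Nothing states that replicates came from separate cultures, so p-values measure the spread between these samples. Replicate numbers did not pair the samples, and no 2 libraries agreed within sampling noise (lowest chi-square per degree of freedom 4.09). Normalization, filters, tests (DESeq2 1.42.0), unwanted-variation factors, replicate blocks and left-out libraries were varied. Sequences and promoters were not analysed here.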

Additional observations from a re-analysis of the deposited data

Results flagged for a closer look

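The difference between Trx RNAi and mCherry RNAi changed between time points (interaction F test in edgeR, adjusted p) in 8 clock genes, with 7.26e-15 for Cipc, 2.32e-14 for cwo, 1.53e-14 for tim, 9.61e-11 for per, 1.31e-08 for Clk, 2.35e-06 for Pdp1, 0.0047 for cry and, in the same list, 2.1e-13 for vri. In photoreceptor genes that fell at the mean, it changed for trp (0.00738), trpl (0.00246), ninaC (0.00129), rdgA (0.0306), Cnx99A (0.000471), chp (0.000426), eys (0.0055), crb (0.000775), Moe (1.22e-07), Pph13 (0.0272), toy (0.0118), t (0.000683) and Cib2 (0.0398), and each of these was lower with Trx RNAi at all 6 time points. In synaptic and channel genes it changed for cac (0.0061), Snap25 (0.0088), Sh (0.00697), Slob (2.68e-06) and eag (0.000495). Among the rest it changed for inaE (2.13e-08), Inx2 (7.41e-08), e (6.45e-06), trr (0.00012), lab (1.75e-05), dpp (0.00361), Su(Tpl) (0.0497), puc (2.53e-08), Trhn (9.14e-06), verm (0.0323), w (0.000777), v (0.00622), y (0.0115), Msp300 (0.0172), Act57B (0.048), Pfk (0.0404), Drs (0.00523), DptB (0.033), CG31516 (0.0216) and pre-rRNA:CR45846 (0.00114). The difference of inaE ran from -1.0 to 0.50 on the log2 scale, that of e from -0.61 to 0.89, and that of Inx2 from -0.90 to 1.21, so their means near 0 cover both signs. The count of such genes over all genes tested depended on the libraries included.

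The count files also hold 2500 tested features without an FBgn identifier, of which 2375 are annotated copies of transposable elements, and the report describes none of them, though they entered the adjustment of p-values. Of the 2500, 515 were higher and 988 lower with Trx RNAi. The copies of Doc were lower in 46 of 64, those of jockey in 30 of 48, those of F in 39 of 63 and those of roo in 99 of 115, while copies of INE-1 went both ways (219 higher and 261 lower of 842), those of X were mostly higher (14 higher and 3 lower of 23) and few of copia changed (2 higher and 3 lower of 31). Copies of an element share sequence, so single copies are uncertain.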

How the results depend on the processing

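The counts of genes that rose and fell were 5469 and 763 with library totals alone, 1398 and 890 when every library had to reach 1 CPM, and 5463 and 4112 at an adjusted p under 0.05 with no minimum fold, and 1820 rose with 3 factors of unwanted variation. Of the genes called, 3538 that rose and 763 that fell kept their call with library totals and 1735 and 1527 with 3 factors. None was called in the opposite direction under either, and changes of sign without a call were not counted. Genes whose difference changed with time numbered 2535 with all 4 genotypes in 1 fit, 2563 with 1 factor and 3141 with 3 factors of unwanted variation. Genes that differed between Trx RNAi and Trr RNAi numbered 24 with glmTreat and 22 under the stricter filter. For trx the difference was 0.529 with library totals and 0.029 under that filter, both opposite in sign, and -0.205 passed at an adjusted p under 0.05 with no minimum fold. With 1 factor of unwanted variation Antp stood at -0.252. Leaving out 1 replicate number gave 3600 to 3692 genes that rose, 1629 to 1810 that fell, 365 to 1694 that changed with time (365 without replicate 2, 694 without replicate 3), 45 to 72 between Trx RNAi and Trr RNAi, and -0.278 to -0.103 for trx. Leaving out 1 library gave 3488 to 3656, 1631 to 1721, 1408 to 2649 (the last without mCherry RNAi ZT12 replicate 1) and -0.221 to -0.156. Same-numbered libraries did not deviate together (median r -0.005, -0.235 to 0.167 over 18 pairs, 3 of them closest to their own number). A replicate block of 18 pairs gave 3590 and 1674 genes and -0.2 for trx, and a block of 3 levels gave 3557 and 1692. Of 54 alternatives, library totals changed the sign of the median in 7 of 31 lists (H3K4 methylation, Polycomb group, dosage compensation, ion channels, rhodopsin maturation, stock markers and elongation), and DESeq2's size factors and the stricter filter did so for elongation only. The causes were not tested. Platform and genotype are confounded throughout, and depth limits statements on genes under about 1 CPM.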

Other observations

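Genes without a descriptive symbol were left unnamed by the rule, and the 3 with the largest falls among those with at least 10 CPM and no overlap were looked at after their values were seen. CG31516 (FBgn0051516, chromosome 3R, 4218463 to 4220130, - strand, protein coding) had 22.6 to 57.0 CPM (median 45.9) in mCherry RNAi and 0.0923 to 0.691 CPM (median 0.265) in Trx RNAi (log2 fold change -7.11, SE 0.116, adjusted p = 2.4e-29), the largest fall of the comparison in this group. The noncoding lncRNA:CR43753 had 7.68 to 32.5 CPM (median 16.3) in mCherry RNAi and 0.0599 to 0.872 CPM (median 0.228) in Trx RNAi (-5.81 ± 0.209) and CG12911 had 34.2 to 125 CPM (median 76.2) in mCherry RNAi and 0.921 to 3.47 CPM (median 1.64) in Trx RNAi (-5.47 ± 0.132). For these 3 the genotypes did not overlap. Among the features that rose, 7SLRNA:CR32864, a copy of the RNA of the signal recognition particle, had 7.30 to 92.7 CPM (median 19.2) in mCherry RNAi and 514 to 1909 CPM (median 983) in Trx RNAi (5.53 ± 0.228).

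Genes that the stocks mark or mutate were read separately, since their counts can come from transgenes or mutant alleles. Vermilion, v, had 0 to 45.6 CPM (median 8.74) in mCherry RNAi and 13.7 to 23.6 CPM (median 19.2) in Trx RNAi and rose (1.08 ± 0.162), though its difference was 0.99 and no longer called without mCherry RNAi ZT12 replicate 1. Yellow, y, did not pass (-0.62 ± 0.086). Sevenless, sev, the receptor of R7 development, rose (2.11 ± 0.093) from 17 to 69.0 CPM in the medians. Msp300, whose KASH domain is part of the nuclear tag, had 4038 to 11790 CPM (median 5722) in mCherry RNAi and 5461 to 11450 CPM (median 7389) in Trx RNAi (0.26 ± 0.058) and did not pass.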
